A study of Mus musculus with 3 samples.

Results

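The small leucine-rich proteoglycans of the extracellular matrix were followed here through 10 genes, Dcn, Bgn, Aspn, Lum, Fmod, Prelp, Kera, Omd, Ogn and Epyc. They were chosen by name, as genes whose symbol in the array's annotation is one of these, and all 10 were found, on 14 of 38880 probes (10 of 19909 gene symbols). The genes, and the lists set beside them below, were chosen with earlier results of these data known. Shares set against all features are therefore descriptions, not tests. Epyc stands in that annotation under its older symbol Dspg3. Dcn had 4 probes, Ogn had 2 and each of the others had 1. RNA of dissected brain cortices at E15.5 (a stage given in embryonic days) from Snf2l-Ex6DEL mice, in which exon 6 of Snf2l is deleted, was compared with RNA of wild-type mice. All animals were of the 129Sv background. Snf2l, now named Smarca1, encodes an ISWI ATPase that moves nucleosomes along DNA. RNA came from 2 samples per genotype on 3 two-colour arrays: replicates 1 and 2 held the same pair of RNAs (pair 1) with the dyes exchanged, and replicate 3 held the other pair (pair 2). Whether a sample is 1 embryo or several, and which sex or litter it came from, is not stated in the labels.

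Small leucine-rich proteoglycans are secreted proteins built mainly of leucine-rich repeats, and most carry chondroitin, dermatan or keratan sulphate chains. They bind collagen fibrils and set their diameter and spacing in tendon, cornea, cartilage, bone, skin and the fibrous coverings of organs, and several bind growth factors. In the head of the embryo their main known sources are mesenchymal cells of the meninges and of the skull and skin, not the neurons or progenitors of the cortical wall.

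Each array gave a log2 ratio per probe. A positive ratio is read here as higher in the mutant. That direction is likely, from the order of the channels in the labels, but is not stated. Every sign below would turn if all ratios were wild type over mutant. If the ratios were instead red over green dye, the sign of replicate 2 alone would turn. The arrays of pair 1 would then differ in sign for most of these genes, and the pair 1 means would not hold. The array medians were 0.009, 0 and 0.001 on replicates 1 to 3, with SDs of 1.25, 1.32 and 1.26. Each median was at the same time the most frequent value of its array, which 11.7%, 16.6% and 21.9% of probes shared exactly. A spot at that value is counted below as listed without a measured ratio. Spot brightness was not used here, so that no level, detection limit or tissue marker level can be given, and precision is limited by having 3 arrays. Pearson's r over all 28332 features (genes, plus probes without a symbol) was 0.24 between replicates 1 and 2, -0.0091 between replicates 1 and 3 and -0.094 between replicates 2 and 3. The targeted gene Smarca1 read -0.017, 0.36 and 3.11, from 1 probe. Where that probe lies relative to the deletion was not known here, and it does not check the labels.

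In pair 1 most of these proteoglycans gave ratios far below 0 on both arrays, and in pair 2 most of those with a measured ratio lay above 0. Of 10 genes, 7 were at or below -1 (2-fold lower) on both arrays of pair 1, namely Lum, Dcn, Bgn, Fmod, Ogn, Prelp and Epyc. Over all features that share was 5.45%. At or above 1 on replicate 3 were 5 genes, Lum, Bgn, Fmod, Omd and Aspn, against 12% of all features. Lum, Bgn and Fmod met both criteria, as did 1.2% of all features. Prelp was the only one of the 10 below 0 on all 3 arrays, against 9.81% of all features. The median over the 10 genes was -4.37 on replicate 1, -3.16 on replicate 2 and 0.81 on replicate 3, where all features had medians of 0.009, 0 and 0.001. Without spots at the most frequent value the medians of the 10 were -4.37, -3.98 and 1.33. Those of all features were then -0.0385, 0.009 and -0.054. In bulk tissue, fewer cells of a type and less RNA per cell cannot be told apart.

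**Figure D1:**
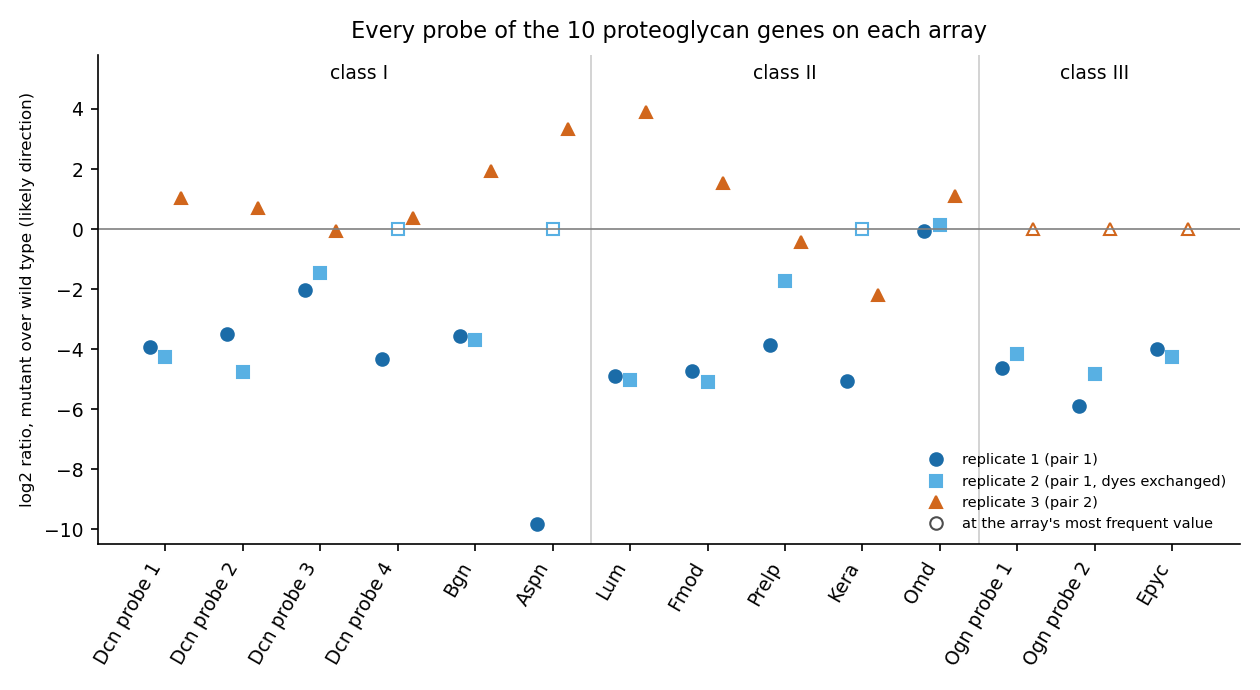
Log2 ratio (vertical axis) of each of the 14 probes on replicate 1 (circles), replicate 2 (squares) and replicate 3 (triangles), grouped by class, with open symbols at the array's most frequent value. All 14 probes lie below 0 on replicate 1 and 10 of 14 on replicate 2, while 8 lie above 0 with a measured ratio on replicate 3.

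**Figure D2:**
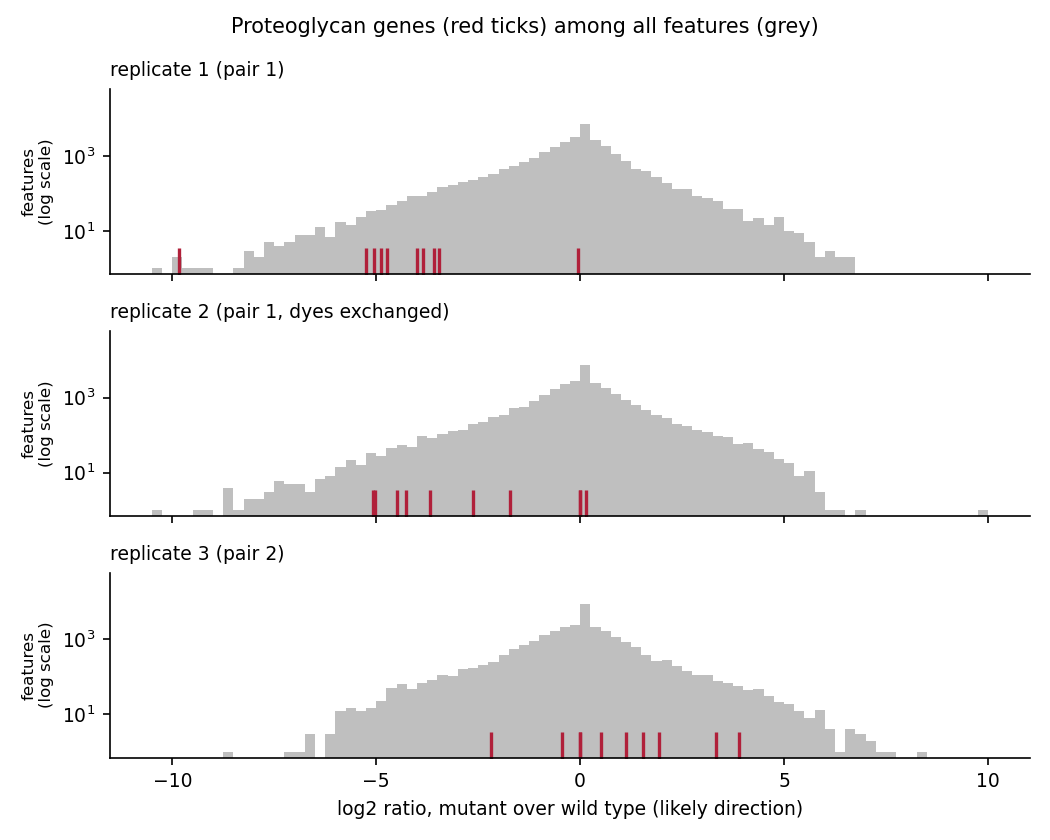
Number of features (vertical axis, log scale) by log2 ratio (horizontal axis) on each array in grey, with the 10 proteoglycan genes as red ticks. The ticks lie mostly in the lower tail on replicates 1 and 2, with medians of -4.37 and -3.16, and around and above the centre on replicate 3, with a median of 0.81.

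Class I of the family holds decorin, biglycan and asporin. Decorin (Dcn), which binds collagen fibrils and TGF-beta, was read by 4 probes, whose mean was -3.45, -2.63 and 0.51 on replicates 1 to 3. Its first probe read -3.94, -4.26 and 1.04, and its second -3.50, -4.77 and 0.70. The dye-swapped arrays differed by 0.32 at the first probe and by 1.27 at the second. The third probe read -2.03, -1.47 and -0.066, nearer to 0 on every array. The fourth read -4.34 on replicate 1, 0 on replicate 2, which is that array's most frequent value, and 0.37 on replicate 3. The probes of Dcn thus shared their sign on replicate 1 and differed in sign on replicate 3.

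Biglycan (Bgn), a close relative of decorin that lies on the X chromosome and is abundant in bone and cartilage, read -3.57, -3.69 and 1.94. The arrays of pair 1 differed by 0.11, far less than their distance from replicate 3. In pair 1 the mean ratio of Bgn was 12.4-fold lower in the mutant, a value that 0.801% of features reached or lay below. Asporin (Aspn), which binds collagen and is found in cartilage and periodontal ligament, read -9.83, 0 and 3.32. Its replicate 2 value is that array's most frequent value. Its replicate 3 value is within 0.0015 of a ratio of exactly 10 to the most frequent value. The dye-swapped arrays therefore differed by 9.83 for Aspn, and its pair 1 mean of -4.91 rests on replicate 1.

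Class II holds lumican, fibromodulin, PRELP, keratocan and osteomodulin, several of which carry keratan sulphate. Lumican (Lum), which spaces collagen fibrils in the cornea and is made by many fibroblasts, read -4.88, -5.02 and 3.89. It had the highest replicate 3 ratio of the 10 genes, and its pair 1 mean of -4.95 was the lowest. In pair 1 it was 30.9-fold lower in the mutant, with 0.244% of features at or below it, and in pair 2 it was 14.9-fold higher, with 0.829% of features at or above it. Fibromodulin (Fmod), which binds collagen in tendon and cartilage, read -4.73, -5.09 and 1.54. It too had all of pair 1 on one side of 0 and pair 2 on the other.

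Prelp, a heparin-binding member that links basement membranes to connective tissue, read -3.86, -1.71 and -0.44. Its dye-swapped arrays differed by 2.15. Keratocan (Kera), a keratan sulphate proteoglycan of the cornea, read -5.06, 0 and -2.19, and its replicate 2 value is the most frequent value of that array. Kera had the lowest replicate 3 ratio of the 10 genes, with 4.29% of all features at or below it. Osteomodulin (Omd), a proteoglycan of mineralised tissue, read -0.052, 0.13 and 1.12. Omd was the one gene of the 10 near 0 on both arrays of pair 1, where 56.5% of features lay at or below its mean of 0.040.

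Class III is represented by osteoglycin and epiphycan. Osteoglycin (Ogn), also called mimecan, had 2 probes. The first read -4.61 and -4.15 on the arrays of pair 1 and the second -5.91 and -4.82. Both probes lay at the most frequent value, 0.001, on replicate 3, so that Ogn has no measured ratio in pair 2. Epiphycan (Epyc), a proteoglycan of growth plate cartilage, read -4.01 and -4.26 in pair 1 and was at 0.001 on replicate 3 as well. In pair 1 Ogn was 29.3-fold and Epyc 17.6-fold lower in the mutant.

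Repeatability within pair 1 differed between the genes. The size of the difference between replicates 1 and 2 had a median of 0.57 over the 10 genes and 0.64 over all features, and it was under 0.5 for 5 genes, Lum, Bgn, Fmod, Omd and Epyc. Of the 11 probes not at the most frequent value on either array of pair 1, 10 were below 0 on both. At the 3 others, one each of Dcn, Kera and Aspn, replicate 1 read between -4.34 and -9.83 and replicate 2 was at 0. Pair 2 was measured on 1 array, so that its repeatability is unknown.

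Mutant and wild type were compared over the pairs with limma, with replicates 1 and 2 averaged first (n = 2 pairs). At an adjusted p of 0.05 it called 0 of the 10 genes and 0% of the 28332 features. At an unadjusted p of 0.05 limma called 715 features and 1 of the 10 genes, and a plain t statistic over replicates 1 to 3 called 0 features after adjustment, with 1046 features and 0 of the 10 genes before it. The means over the pairs ran from -2.44 for Ogn to 0.58 for Omd, with moderated SEs, which limma draws towards a spread common to all features, of 0.24 to 3.07. For Lum it came to -0.53 ± 3.07 (moderated SE over 2 pairs, adjusted p = 0.996 in limma). For Bgn it was -0.84 ± 1.94 (limma's adjusted p = 0.932) and for Fmod -1.69 ± 2.24 (limma's adjusted p = 0.869). For Dcn it was -1.26 ± 1.25 and for Prelp -1.61 ± 0.84, each with limma's adjusted p = 0.852. Kera, with -2.36 ± 0.24 and limma's adjusted p = 0.852, was the gene with an unadjusted p under 0.05. Its pair 1 value of -2.53 is the mean of -5.06 and an unmeasured 0. After adjustment, no difference between mutant and wild type among the 10 genes exceeded the spread between the pairs in limma's test.

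The pairs were then set against each other with limma on the 3 arrays, which takes its spread from the dye-swapped arrays and is a test against technical spread alone. It called 0 of the 10 genes and 0% of features at an adjusted p of 0.05. At an unadjusted p of 0.05 limma called 3389 features in either direction, and 6 of the 10 genes, Lum, Dcn, Bgn, Fmod, Ogn and Epyc, each lower in pair 1. Over all features, 6.42% were called in that direction. Pair 1 minus pair 2 was -8.84 ± 0.29 for Lum, -6.45 ± 0.36 for Fmod and -5.57 ± 0.29 for Bgn (moderated SE, 3 arrays, limma's adjusted p = 0.400 for each). For Aspn it was -8.23 ± 6.04 and for Kera -0.33 ± 3.12, with limma's adjusted p = 0.675 and 0.997. For Omd it was -1.08 ± 0.30 (limma's adjusted p = 0.441). The values of Ogn and Epyc set a measured pair 1 against an unmeasured pair 2. Replicate 3 carries its dye effect uncancelled, and a dye term would leave no residual degrees of freedom.

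**Figure D3:**
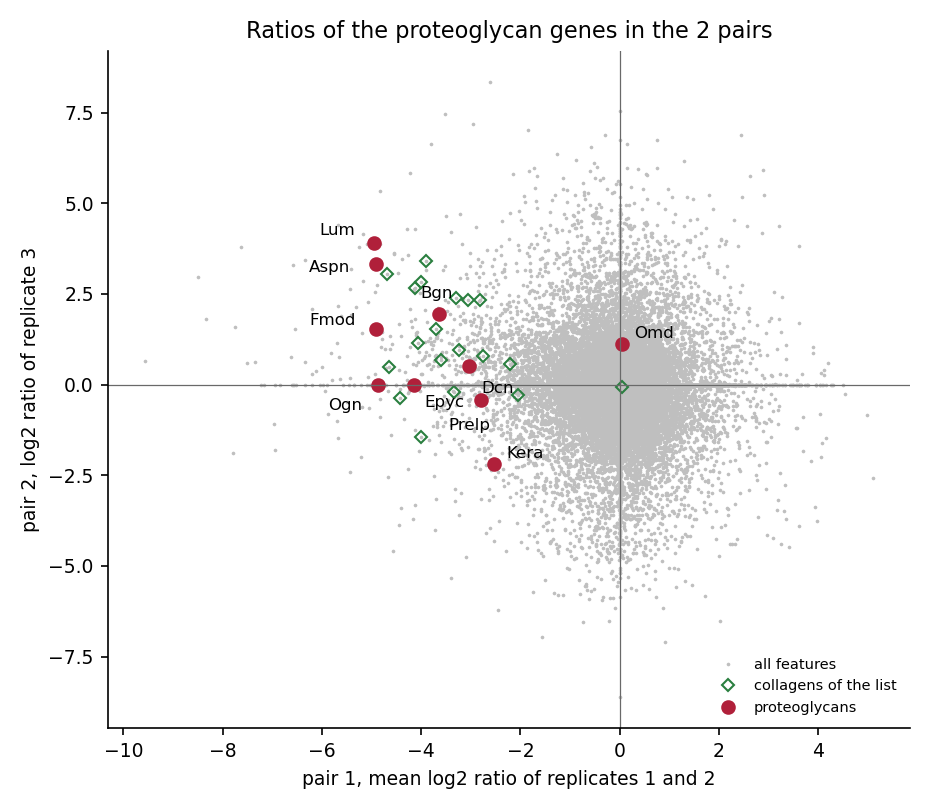
Mean log2 ratio of pair 1 (horizontal axis) against the log2 ratio of pair 2 (vertical axis) for all features (grey), the collagens of the list (green diamonds) and the 10 proteoglycan genes (red). Lum, Aspn, Fmod, Bgn and Dcn lie at upper left, Ogn and Epyc on the zero line of pair 2, Prelp and Kera at lower left and Omd near 0 in pair 1.

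By the RefSeq gene order of assembly GRCm38.p6, 9 of the 10 genes lie in 3 clusters, as known for this family, and the arrays can be read gene by gene along them. On chromosome 10 the order is Dcn, Lum, Kera and Epyc, which all read below -3 on replicate 1. The nearest measured coding genes on either side, chosen by position alone, were Btg1, an antiproliferative factor, at -0.72, 0.22 and -0.66, and Ccer1 at 0.44, 0 and -2.09. On chromosome 13 the order is Ecm2, Aspn, Omd and Ogn. Omd, at -0.052 and 0.13 in pair 1, thus lay between Aspn at -9.83 on replicate 1 and Ogn at -5.26 and -4.48. Ecm2, a related leucine-rich matrix gene, read -1.72, 0 and 0.001, with a measured ratio on replicate 1 alone, and the flanking genes Cenpp and Nol8 read 0.065, 0.15 and -0.14 and 0.54, 1.42 and 0.30. On chromosome 1 Prelp and Fmod are neighbours, with Optc, opticin of the eye's vitreous, on one side at -0.49, -0.77 and -1.26. On the other side of Fmod lies Btg2, at 0.68, 0.68 and -0.052. Bgn stands alone on the X chromosome, where its neighbours Haus7 and Atp2b3 read 0.24, 0.20 and -0.17 and -0.24, -0.25 and -0.92. Among the measured neighbours plotted, Dusp9, a phosphatase gene 2 coding genes from Bgn and singled out after its values were seen, was the only one below -3 on any array, at -2.25, -6.86 and 3.64. No test of position was made.

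**Figure D4:**
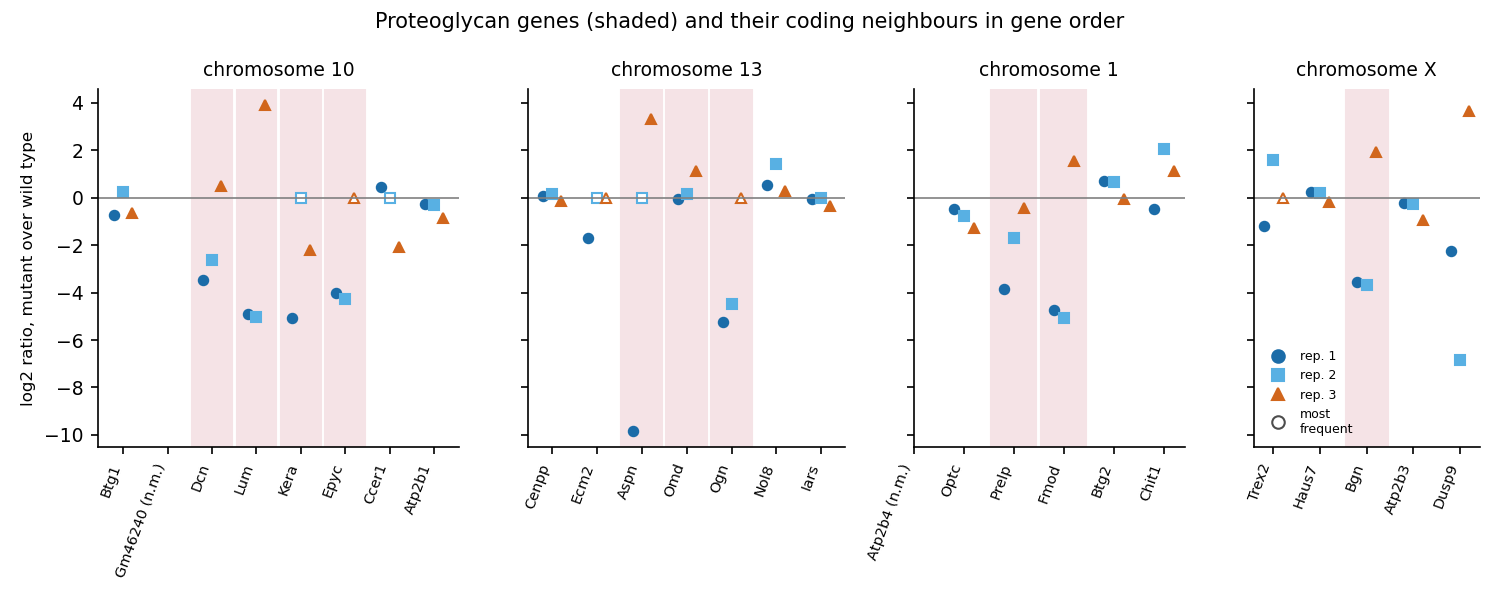
Log2 ratios (vertical axis) on the 3 arrays of the proteoglycan genes (shaded) and nearby coding genes in gene order on each chromosome, not to genomic scale. Open symbols are at the most frequent value, n.m. marks genes with no probe of that symbol, and Omd at -0.052 and 0.13 stands between Aspn and Ogn.

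Promoter windows are shown for Ogn and Omd, adjacent genes whose pair 1 ratios differ, and for Fmod and Bgn, genes at other loci with ratios below -3 on both arrays of pair 1. RefSeq-based windows from 250 bases before to 50 bases after a gene start (GRCm38.p6) were held for 8 of the 10 genes, in 9 windows. Lum and Dcn were not matched. Capitals mark 4 motifs searched on both strands: the TATA box TATAAA, the CCAAT box CCAAT, the GC box GGGCGG and the AP-1 site TGANTCA. Hits can overlap, as in the first sequence, where TATAAA on each strand shares letters. The windows lie at chr13:49607765-49608064 for Ogn, chr13:49582212-49582511 for Omd, chr1:134037004-134037303 for Fmod and chrX:73483351-73483650 for Bgn, all on the + strand, 5′ to 3′.
Ogn: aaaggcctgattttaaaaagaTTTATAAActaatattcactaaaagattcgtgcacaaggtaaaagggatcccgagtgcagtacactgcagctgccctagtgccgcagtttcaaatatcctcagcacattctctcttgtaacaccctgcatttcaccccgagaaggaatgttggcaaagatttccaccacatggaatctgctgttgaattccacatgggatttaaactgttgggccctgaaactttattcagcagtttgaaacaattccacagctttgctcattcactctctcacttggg
Omd: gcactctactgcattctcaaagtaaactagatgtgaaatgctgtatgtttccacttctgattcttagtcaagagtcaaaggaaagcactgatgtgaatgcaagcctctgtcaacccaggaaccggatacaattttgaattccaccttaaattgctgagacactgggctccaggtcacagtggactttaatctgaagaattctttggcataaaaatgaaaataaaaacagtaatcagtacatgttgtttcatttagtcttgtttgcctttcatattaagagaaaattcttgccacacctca
Fmod: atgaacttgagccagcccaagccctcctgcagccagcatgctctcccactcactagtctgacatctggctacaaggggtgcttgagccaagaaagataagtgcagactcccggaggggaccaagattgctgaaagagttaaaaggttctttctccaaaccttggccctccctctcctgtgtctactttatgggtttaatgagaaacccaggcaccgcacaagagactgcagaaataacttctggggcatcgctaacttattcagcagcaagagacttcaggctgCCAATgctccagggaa
Bgn: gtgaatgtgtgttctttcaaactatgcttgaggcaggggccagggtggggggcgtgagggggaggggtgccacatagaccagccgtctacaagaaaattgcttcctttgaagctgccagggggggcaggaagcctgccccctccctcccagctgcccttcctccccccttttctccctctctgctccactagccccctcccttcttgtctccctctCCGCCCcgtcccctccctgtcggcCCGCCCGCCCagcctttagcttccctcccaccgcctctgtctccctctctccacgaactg

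Among the 9 windows, TATAAA was in those of Aspn and Ogn, against 13.6% of all 32851 windows. CCAAT was in those of Aspn, Fmod, Kera and Prelp, against 37.4% of all windows. GGGCGG was in that of Bgn alone, against 35.7%, and TGANTCA in 0 of 9, against 7.81%. The Omd window held none of the 4 motifs, nor did either window of Epyc, a gene that read -4.01 and -4.26 in pair 1. The median GC content was 41% in the 9 windows and 52.7% in all, and the median number of CpG dinucleotides was 3 and 7. These letters describe the windows and show no binding.

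Collagens, the fibril proteins that these proteoglycans bind, mostly had ratios of like sign. The list held 19 collagen genes, fibrillar, fibril-associated or of collagen VI. Of these, 18 were at or below -1 on both arrays of pair 1, beside 5.45% of all features. Below 0 on all 3 arrays were 4 of the 19, Col5a3, Col9a1, Col9a2 and Col14a1, beside 9.81% of all features. On replicate 3, 14 of 19 were above 0, where all features had a median of -0.054 without spots at the most frequent value. Their medians were -3.03, -3.64 and 0.95 on replicates 1 to 3. Among the collagens with no spot at the most frequent value, Col14a1, which is fibril-associated, had the lowest mean over the pairs, at -5.42, -3.44 and -0.37, and Col6a2, of collagen VI, the highest, at -3.12, -2.48 and 2.33. None of the 19 was called by limma over the pairs, and no difference between collagens and proteoglycans was tested. The other 7 members of the wider leucine-rich proteoglycan family had medians of -1.56, -0.16 and 0.001. Of them 3 were below 0 on both arrays of pair 1, as were 22.9% of all features, and 4 were at the most frequent value on replicate 3. Chad, chondroadherin of cartilage, was the lowest, at -2.93, -2.11 and -0.98, and Tsku, tsukushi, a modulator of BMP and Wnt signals, the highest, at 0.096, -0.16 and 0.74.

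Genes of glycosaminoglycan chain synthesis, those of sulphate supply included, had medians near 0, at -0.36, -0.55 and 0.021 over 30 measured genes. In all, 16 were below 0 on both arrays of pair 1 and 5 were at or below -1 on both. Over all features these shares were 22.9% and 5.45%. Dse, the epimerase that makes dermatan sulphate, read -2.42, -2.01 and -0.73, and Xylt1, the xylosyltransferase that starts the chains, 0.93, 1.41 and 2.44. Growth factors and receptors that small leucine-rich proteoglycans are known to bind had medians of -0.93, -0.64 and 0.43 over 21 genes, with 7 at or below -1 on both arrays of pair 1. Bmp4 read -3.13, -2.63 and -0.56, and Tlr2, an innate immune receptor for biglycan, -0.76, -0.88 and 3.08. Lecticans and their link proteins, the proteoglycan matrix of the brain itself, had medians of -0.24, 0 and -0.34 over 10 genes, 4 of which lay below and 4 above 0 on both arrays of pair 1. Bcan, brevican, read -0.48, -0.53 and -2.20, and Hapln2, a link protein of nodes of Ranvier, 0.76, 0.97 and 2.07. Limma called none of the genes on these lists over the pairs.

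Marker lists of other cell types differed in how far their ratios resembled those of the proteoglycans. Of all features, 22.9% were below 0 on both arrays of pair 1 and 25.3% above 0 on both. On replicate 3 the median of all features was -0.054 without spots at the most frequent value. Meningeal and fibroblast markers gave medians of -3.07, -2.93 and 0.52. Below 0 on both arrays of pair 1 were 17 of 18, and 12 of the 16 measured on replicate 3 were above 0. The 4 below 0 there were Ptgds at -2.41, Slc6a13 at -0.565, Slc13a4 at -0.24 and Twist1 at -0.047. The ranges of the list on replicates 1 to 3 were -6.23 to -0.98, -6.33 to 0.20 and -2.41 to 3.18. Cartilage and bone markers gave medians of -4.11, -3.01 and 0.001, and skeletal muscle markers -5.43, -6.05 and 0.001. Below 0 on both arrays of pair 1 were 9 of 11 and 12 of 14. Above 0 on replicate 3 were 5 of the 8 measured and 6 of the 12 measured. Over measured genes the replicate 3 medians were 0.68 for fibroblast, 0.24 for skeletal and 0.38 for muscle markers. Skin markers gave medians of -0.33, -0.58 and 1.71, and 3 of 8 were below 0 on both. Endothelial and pericyte markers had 8 of 11 below 0 on both arrays of pair 1 and medians of -0.91, -0.83 and 0.20, and microglial markers 6 of 9, with -1.21, -0.54 and -0.34. On replicate 3 Prrx1 and Mfap5 of the fibroblast list, Comp, Runx2 and Ibsp of the skeletal list and Myod1 and Myf6 of the muscle list were at the most frequent value. Neuronal markers gave medians of 1.20, 0.52 and 0.14. Of 9, 0 were below and 5 above 0 on both arrays of pair 1. Cortical progenitor markers gave medians of 1.15, 1.15 and -0.53, and 6 of 9 were above 0 on both. The part of any of these tissues in the ratios of the proteoglycans was not tested.

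**Figure D5:**
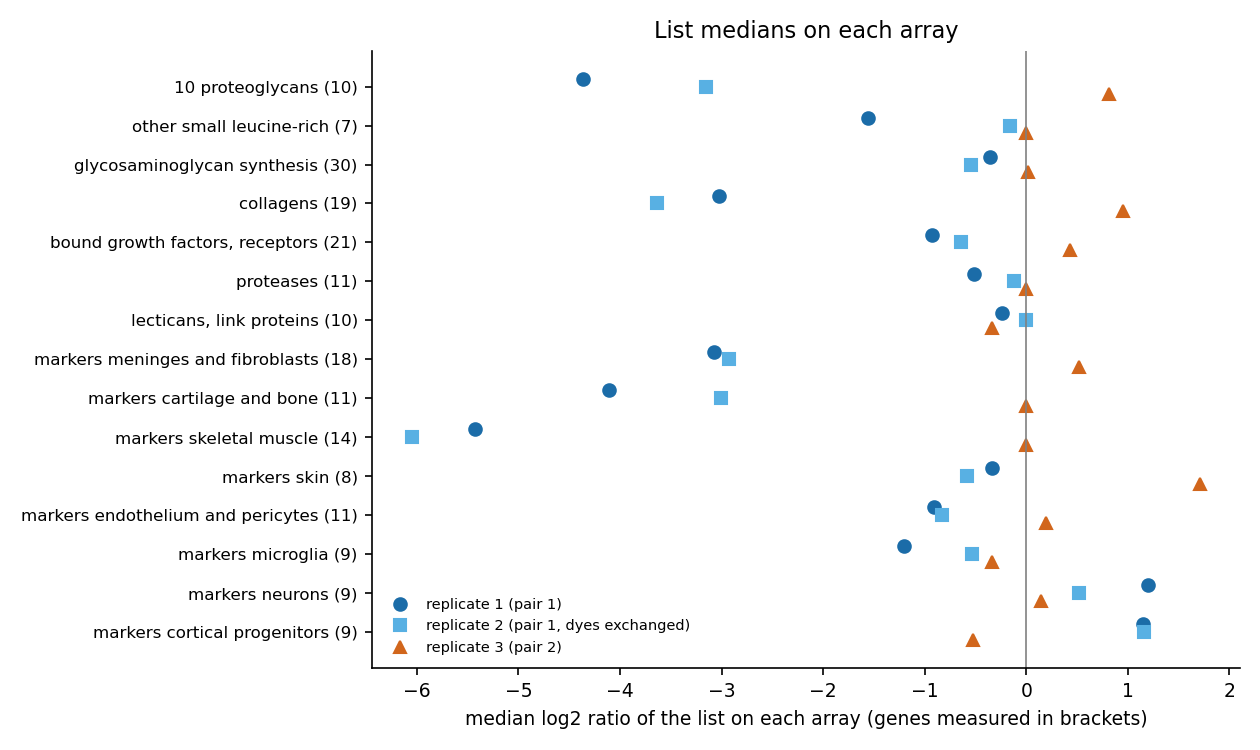
Median log2 ratio (horizontal axis) of each gene list (rows, with the number of measured genes) on replicate 1 (circles), replicate 2 (squares) and replicate 3 (triangles). The median of the 10 proteoglycans, at -4.37, -3.16 and 0.81, lies with those of the collagens and of the meningeal and fibroblast markers. These medians are far below 0 in pair 1 and above it in pair 2. Cartilage and bone markers, at -4.11 and -3.01, and skeletal muscle markers, at -5.43 and -6.05, lie far below 0 in pair 1 too. Their pair 2 medians are 0.001, that array's most frequent value.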

How the data were processed

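The authors deposited, per the labels, 3 two-colour arrays. The unit of the deposited values, a log2 ratio, was read from the values themselves. They lie on both sides of 0 with medians at 0.009, 0 and 0.001. Background correction, normalization within arrays, spot filter and numerator are not stated in the labels. Probe symbols came from the platform annotation: 30457 probes had 1 symbol, 0 had several and 8423 had none. Of the symbols, 12795 were current in RefSeq (GRCm38.p6), 8317 were renamed through a unique synonym and 364 were kept. Probes of 1 symbol were averaged and the rest stayed single, giving 28332 features. No sign was turned.

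Limma 3.58.1 (R 4.3.3, lmFit, eBayes, Benjamini-Hochberg over all features, threshold 0.05) tested the mean of 2 pairs against 0, with total degrees of freedom of 2.08, and pair 1 minus pair 2 over 3 arrays, with 1.99. P-values concern the spread between these samples alone. The code was tested on simulated data. The members and lists were chosen with earlier results of these data known. Named were all 10 members with each probe, Smarca1, the highest and lowest gene of each companion list by mean of the pairs among genes with no spot at the most frequent value, and the 6 genes nearest to the members' median ratios. Neighbouring genes were added by position after that rule was set. Figures used Python 3.11.15 and matplotlib 3.10.9. Alternatives covered centring, scaling, single probes, unmeasured spots, each array left out, arrays as independent, robust eBayes, a plain t statistic and the fold threshold.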

Additional observations from a re-analysis of the deposited data

How the results depend on the processing

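Over the pairs, every alternative that kept both pairs called 0 features and 0 of the 10 genes at an adjusted p of 0.05. These included replicate 1 or replicate 2 left out, arrays as independent, robust eBayes and the plain t statistic. Arrays as independent and the plain t statistic counted the dye-swapped arrays of pair 1 as 2 samples. Without replicate 3 only the dye-swapped arrays of 1 pair remain, and no count is given. With total degrees of freedom of 2.08 in the main fit and adjustment over 28332 features, only effects very large against their spread could be called. The repeated 0 therefore does not show that the genes were unchanged. For pair 1 minus pair 2, limma's count was also 0 in the 5 alternatives with a test. The lowest adjusted p by limma was 0.201, with unmeasured spots left out. In that setting Ogn and Epyc, unmeasured in pair 2, and Kera and Aspn, measured on 1 array of pair 1, had no test. Over the pairs Ogn and Epyc had no test there either. Without replicate 1 or replicate 2, pair 1 minus pair 2 has no residual degrees of freedom and no test was made. The number of genes lower on both arrays of pair 1 by at least the fold threshold was 7 at 1.5-fold and 6 at 4-fold. The number high on replicate 3 went from 5 to 2 at 4-fold. The shares of all features given above are for 2-fold alone, so these counts have no such share beside them. The mean of the pairs for Aspn was -4.91 to 1.66 with 1 array left out, the positive value without replicate 1. Without replicate 3 each mean is the pair 1 mean, -4.95 for Lum against -0.53. With unmeasured spots left out, Kera went to -3.62, Aspn to -3.25, and Ogn and Epyc to -4.87 and -4.13, from pair 1 alone. The pair 1 median was -4.50 then, and -4.37 to -3.16 with 1 array left out. No other direction changed.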

Other observations

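Among features with a symbol outside the 10 genes, the 6 nearest by Euclidean distance to the median ratios of the 10 over 3 arrays were Ccl12, Zfp458, Timp1, Prss35, Tnmd and Ptprv, at distances of 0.28 to 0.48. With 3 arrays such likeness is only a description. Ccl12, a chemokine, read -4.14, -3.01 and 0.90 on replicates 1 to 3. Timp1, an inhibitor of metalloproteinases, read -4.17, -3.38 and 0.97. Tnmd, tenomodulin of tendon, read -4.28, -3.56 and 0.80. All 6 had limma's adjusted p = 0.852 or more over the pairs.

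Proteases known to cut small leucine-rich proteoglycans had medians of -0.52, -0.12 and 0.001 over 11 genes, of which 3 were at or below -1 on both arrays of pair 1. Mmp2, gelatinase A, read -4.24, -3.27 and -0.013, and Adamts4, an aggrecanase, -1.45, -0.66 and 1.16. Limma called none of the 11 over the pairs.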
